A study of Mus musculus with 24 samples.

Results

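The genes described here are 35 genes of myelin and of mature oligodendrocytes, taken as a list of symbols and read in cerebellar RNA. All 35 were found once each among the 37991 Ensembl gene identifiers of the count tables, and all 35 passed the low-count filter that left 15292 genes for testing. The RNA came from the cerebellum of male mice of the inbred strain C57BL/6J, aged 7 weeks (young adult) or 79 weeks (aged), with 2 libraries at each age. No treatment, transgene or deletion is named for either age, and whether each library was made from its own mouse is not in the labels. The p-values therefore weigh differences against the scatter of these 4 libraries, part or all of which may be technical. The other 20 of the 24 samples of the series are genomic libraries for cytosine methylation and hydroxymethylation and are not analysed here.

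Oligodendrocytes wrap axons of the central nervous system in myelin, a multilayered membrane sheath that insulates the axon and speeds conduction. The sheath is rich in galactolipids and cholesterol, its layers are held together by a small set of very abundant membrane proteins, and tight and gap junctions seal it and couple the cell to its neighbours. In the cerebellum most myelin lies in the white matter below the granule cell layer, around the axons of Purkinje cells and the fibres that enter from the brainstem. The members were ordered by role as 9 sheath proteins, 4 lipid enzymes, 3 junction proteins, 4 transcription factors and receptors, 7 cytoskeletal and intracellular proteins, and 8 secreted, matrix and metabolic proteins.

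The libraries held 16367656 to 22826993 gene counts. Levels below are CPM, gene counts relative to library size after TMM scaling (a correction for library composition), and no levels are compared between genes because transcript lengths were not used. The labelled tissue was checked against its markers. The 10 granule neuron markers summed to between 6062 and 7559 CPM per library and the 6 forebrain markers to between 8.04 and 11.1 CPM. One library stood apart. All 12 choroid plexus markers together reached 6817 CPM in 79-week replicate 1 and 159.8 to 175.6 CPM in the other libraries, with Ttr at 5061 CPM against 0.19, 0.43 and 2.16 CPM. Markers of meninges and fibroblasts summed to 403.8 CPM in that library and to 188.2 to 228.0 CPM in the others. Apart from that library most of the choroid plexus sum was Enpp2, which oligodendrocytes also express, at 129.2 to 144.0 CPM. The same library was the lowest of the 4 for most myelin genes, so each role group is also given without it. A fit without 1 library has a single library at that age, so its scatter comes from the other age alone. Its counts of genes lower or higher are therefore no check on the calls with all 4 libraries. Of the choroid plexus markers 0 of 8 tested passed in either direction (2 were higher without that library), and of the meningeal markers 1 of 10 fell (Col3a1, log2 fold change -1.44, adjusted p = 0.00903; 3 were lower without it). Markers of Schwann cells, which make peripheral myelin, summed to 46.2 to 50.04 CPM in every library, most of it Pmp22. In bulk tissue, fewer oligodendrocytes and less RNA per oligodendrocyte cannot be told apart.

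The comparison of 79 with 7 weeks asks how myelin gene expression differs between young and aged cerebellum. Of the 35 members, 8 were lower at 79 weeks at an adjusted p of 0.05, beside 4.68% of all tested genes, and 2 were higher, beside 4.17%. With scaling by library size alone the members' counts were the same 8 and 2, while the shares of all tested genes were 3.17% lower and 5.89% higher. The 8 that fell were the sheath genes Mog, Mal and Tspan2, the lipid enzyme gene Ugt8a, the junction genes Cldn11 and Gjc3, the actin regulator gene Gsn and the protease gene Adamts4. The 2 that rose were Apod, which encodes a secreted lipid carrier, and Il33, which encodes a nuclear cytokine. Their Ensembl identifiers in the count tables are ENSMUSG00000076439 (Mog), ENSMUSG00000027375 (Mal), ENSMUSG00000027858 (Tspan2), ENSMUSG00000032854 (Ugt8a), ENSMUSG00000037625 (Cldn11), ENSMUSG00000056966 (Gjc3), ENSMUSG00000026879 (Gsn), ENSMUSG00000006403 (Adamts4), ENSMUSG00000022548 (Apod) and ENSMUSG00000024810 (Il33). The other 25 members did not pass the test. The median log2 fold change of the members was -0.27, against 0.01 over all tested genes. In 18 members both 79-week libraries lay below both 7-week libraries, beside 28.7% of all tested genes, and in 2 they lay above them, beside 29.1%.

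**Figure D1:**
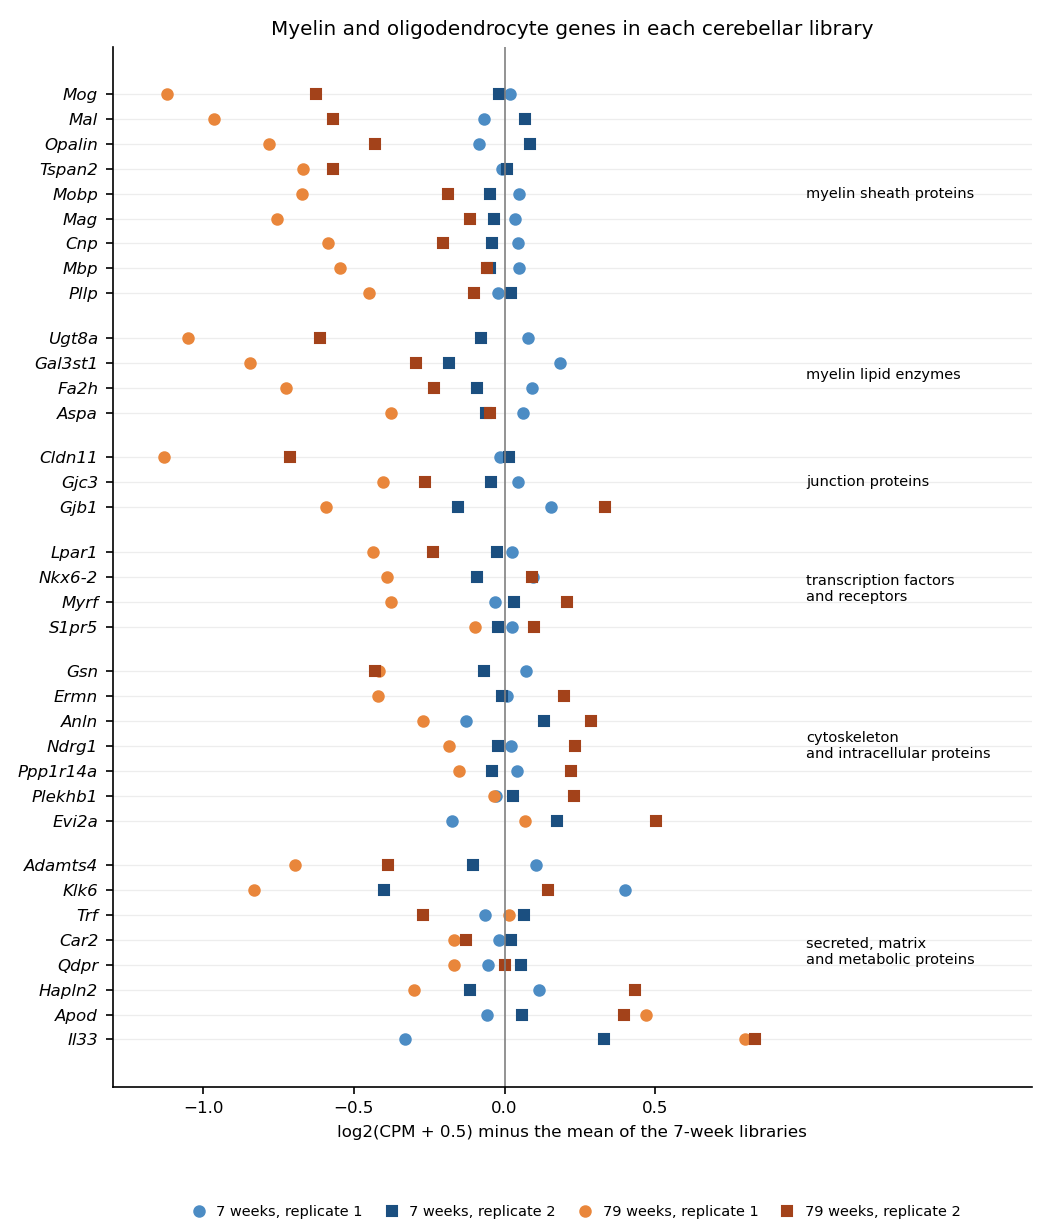
Level of each of the 35 members in each library, as log2(CPM + 0.5) minus the mean of the 7-week libraries (horizontal axis), grouped by role; circles are replicate 1 and squares replicate 2, blue for 7 weeks and orange to brown for 79 weeks. All 9 sheath genes lie left of the 7-week libraries in both 79-week libraries, and the circle of 79-week replicate 1 is the lowest point for 30 of the 35 members.

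The 9 genes of sheath proteins had a median log2 fold change of -0.41, and of -0.20 without 79-week replicate 1. Of these, 3 fell, 0 rose and 6 did not pass the test, and for all 9 both 79-week libraries lay below both 7-week libraries. Without 79-week replicate 1 the log2 fold change was -0.63 for Mog, -0.57 for Mal and -0.57 for Tspan2. Mog, which encodes a glycoprotein on the outermost lamella of the sheath, stood at 55.9 and 54.4 CPM at 7 weeks and at 25.1 and 35.6 CPM at 79 weeks. The ages did not overlap, and replicate 1 was the lower of the 79-week libraries (log2 fold change -0.86, SE 0.15, adjusted p = 0.0169). Mal, whose product is a raft-associated membrane protein of compact myelin, stood at 153.0 and 168.2 CPM at 7 weeks and at 82.04 and 108.1 CPM at 79 weeks (log2 fold change -0.75, SE 0.12, adjusted p = 0.0136; 0.0657 with edgeR's robust dispersion). Tspan2, a tetraspanin of myelin membranes, stood at 138.8 and 140.5 CPM at 7 weeks and at 87.7 and 93.9 CPM at 79 weeks. Its libraries were close to each other at both ages, and it had the smallest adjusted p of the members (log2 fold change -0.62, SE 0.06, adjusted p = 0.00328).

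The major structural genes did not pass the test. Mbp, which encodes the basic protein that holds the cytoplasmic faces of compact myelin together, stood at 3032.5 and 2838 CPM at 7 weeks and at 2008 and 2818 CPM at 79 weeks. Its 79-week replicate 2 lay close to the lower 7-week library, at 96.0% of the 7-week mean, while replicate 1 was at 68.4% (log2 fold change -0.28, SE 0.14, adjusted p = 0.24). Mobp, a second basic protein of compact myelin, stood at 746.2, 698.9, 453.1 and 634.0 CPM in the same order of libraries (log2 fold change -0.41, adjusted p = 0.11; -0.19 without 79-week replicate 1). Mag, an adhesion protein that faces the axon, stood at 204.2, 194.8, 117.8 and 184.0 CPM, and its 79-week replicates were at 59.1% and 92.2% of the 7-week mean (log2 fold change -0.40, adjusted p = 0.188). For these 3 genes the wide gap was between the 79-week libraries, not between 79-week replicate 2 and the younger age. Cnp, which encodes a phosphodiesterase of noncompact myelin, stood at 376.6, 354.7, 243.2 and 317.2 CPM (log2 fold change -0.38, adjusted p = 0.0778; -0.20 without 79-week replicate 1). Opalin, a small membrane protein of oligodendrocytes, stood at 12.6, 14.3, 7.61 and 9.85 CPM, with a log2 fold change of -0.62 like that of Tspan2 but a larger SE of 0.16 (adjusted p = 0.0585). Pllp, a proteolipid of the Mal family, had a log2 fold change of -0.27 (adjusted p = 0.197; -0.10 without 79-week replicate 1), the smallest of the 9 with all libraries.

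Myelin lipid enzymes had a median log2 fold change of -0.52, with 1 of 4 lower, 0 higher and 3 that did not pass the test. Without 79-week replicate 1 the median was -0.27, and the log2 fold change of Ugt8a was -0.62. Ugt8a transfers galactose to ceramide and so makes galactosylceramide, the main glycolipid of myelin. It stood at 70.5 and 63.3 CPM at 7 weeks and at 32.0 and 43.6 CPM at 79 weeks, without overlap (log2 fold change -0.82, SE 0.14, adjusted p = 0.0162). Gal3st1, which sulfates galactosylceramide to sulfatide, stood at 10.97, 8.40, 5.13 and 7.73 CPM (log2 fold change -0.58, SE 0.24, adjusted p = 0.171). Fa2h, which hydroxylates the fatty acids of these lipids, stood at 62.4, 54.9, 35.2 and 49.7 CPM (log2 fold change -0.46, SE 0.15, adjusted p = 0.103). Both were lower in each 79-week library than in either 7-week library, but by less in replicate 2, and without 79-week replicate 1 their log2 fold changes were -0.31 for Gal3st1 and -0.23 for Fa2h. Aspa, which splits N-acetylaspartate and frees acetate for lipid synthesis, overlapped between ages, at 16.2, 14.8, 11.8 and 14.95 CPM (log2 fold change -0.21, adjusted p = 0.394; -0.05 without 79-week replicate 1).

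Of the junction genes 2 of 3 fell and 0 rose, with a median log2 fold change of -0.33. The median was -0.27 without 79-week replicate 1, with log2 fold changes of -0.71 for Cldn11 and -0.27 for Gjc3. Cldn11, the claudin of the tight junctions between myelin lamellae, had the most negative log2 fold change of the 35 members. It had 125.2 and 127.8 CPM at 7 weeks against 57.5 and 77.1 CPM at 79 weeks (log2 fold change -0.91, SE 0.12, adjusted p = 0.00903). Those 79-week values are 45.4% and 60.9% of the 7-week mean. The connexin gene Gjc3 stood at 99.6, 93.5, 72.9 and 80.2 CPM (log2 fold change -0.33 with an SE of 0.07, adjusted p = 0.0305). The other connexin gene, Gjb1, stood at 20.7 and 16.6 CPM at 7 weeks and at 12.1 and 23.5 CPM at 79 weeks. Its 79-week libraries lay on opposite sides of the 7-week libraries, and its log2 fold change was -0.05 (SE 0.27, adjusted p = 0.925; 0.34 without 79-week replicate 1).

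**Figure D2:**
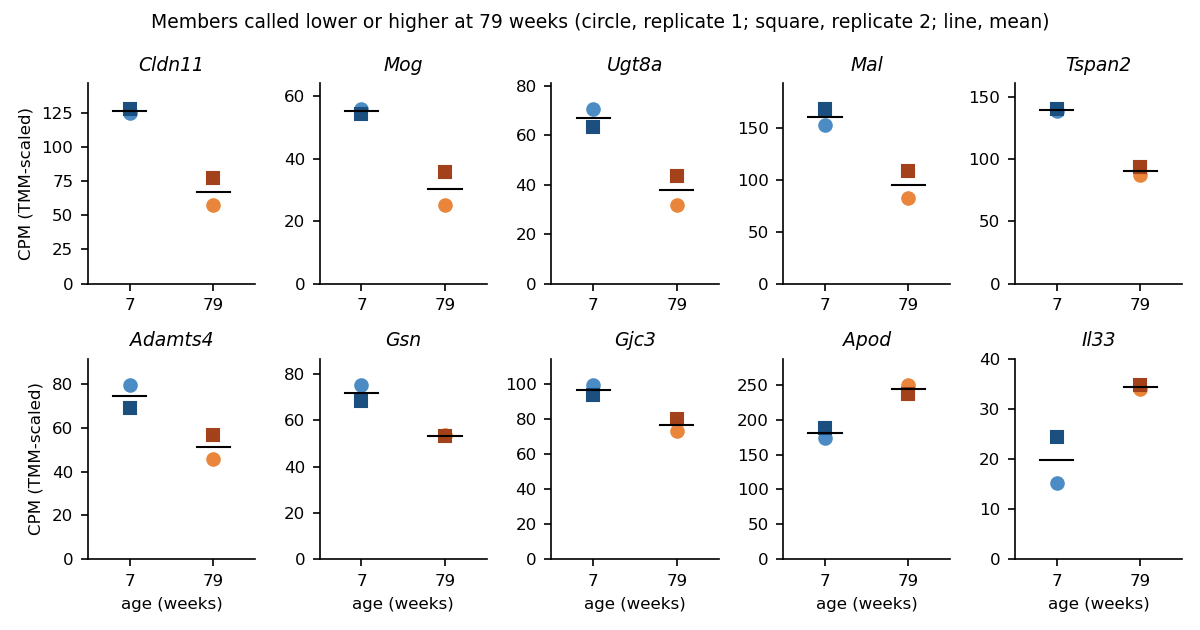
TMM-scaled CPM (vertical axes, each from 0) at 7 and 79 weeks for the 10 members that passed the test; each point is 1 library and the line is the mean of 2. The ages do not overlap in any panel, and the 79-week points lie farther apart for Cldn11, Mog, Ugt8a and Mal than for Tspan2, Gsn and Gjc3.

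Promoters of members that passed the test and have a single annotated start are printed to show the upstream sequence of genes that moved in the same direction, with that of Apod, which moved in the other. Each is the 250 bases before the start, 5′ to 3′ on the gene's strand, from RefSeq in build GRCm38.p6 (mm9 is the build named for the counts, and no position is carried between the builds). Capitals mark letters of 2 motifs searched on both strands, the MYRF motif (CTGGCAC or CTGGTAC) and a SOX motif (ACAAAG or ACAATG), which do not overlap here. The windows are chr3:31149670-31149919 for Cldn11 (plus strand), chr17:37023399-37023648 for Mog (minus), chr3:125938653-125938902 for Ugt8a (minus), chr2:127656696-127656945 for Mal (minus), chr5:137963099-137963348 for Gjc3 (minus) and chr16:31314809-31315058 for Apod (minus).
Cldn11: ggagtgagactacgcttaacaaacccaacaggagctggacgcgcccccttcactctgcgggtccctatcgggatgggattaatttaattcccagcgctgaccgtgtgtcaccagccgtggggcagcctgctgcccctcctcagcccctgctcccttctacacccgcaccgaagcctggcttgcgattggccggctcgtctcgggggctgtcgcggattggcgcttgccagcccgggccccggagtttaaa
Mog: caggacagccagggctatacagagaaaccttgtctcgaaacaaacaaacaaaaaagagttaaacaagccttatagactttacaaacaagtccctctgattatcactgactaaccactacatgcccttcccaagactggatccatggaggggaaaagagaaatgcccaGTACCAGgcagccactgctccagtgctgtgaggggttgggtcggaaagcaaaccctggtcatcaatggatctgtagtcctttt
Ugt8a: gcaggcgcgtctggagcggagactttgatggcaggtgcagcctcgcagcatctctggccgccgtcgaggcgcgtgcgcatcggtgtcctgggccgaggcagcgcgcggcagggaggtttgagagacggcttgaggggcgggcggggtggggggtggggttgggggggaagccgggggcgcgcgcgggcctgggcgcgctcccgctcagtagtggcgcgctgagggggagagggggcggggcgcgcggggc
Mal: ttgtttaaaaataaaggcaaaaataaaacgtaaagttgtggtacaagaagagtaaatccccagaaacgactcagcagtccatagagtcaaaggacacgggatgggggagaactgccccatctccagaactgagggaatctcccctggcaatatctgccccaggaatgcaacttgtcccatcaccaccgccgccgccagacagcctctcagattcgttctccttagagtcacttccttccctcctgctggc
Gjc3: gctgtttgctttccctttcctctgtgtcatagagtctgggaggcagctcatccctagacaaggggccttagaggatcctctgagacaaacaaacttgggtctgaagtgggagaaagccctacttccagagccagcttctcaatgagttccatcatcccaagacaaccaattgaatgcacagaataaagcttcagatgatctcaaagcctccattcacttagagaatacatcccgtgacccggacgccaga
Apod: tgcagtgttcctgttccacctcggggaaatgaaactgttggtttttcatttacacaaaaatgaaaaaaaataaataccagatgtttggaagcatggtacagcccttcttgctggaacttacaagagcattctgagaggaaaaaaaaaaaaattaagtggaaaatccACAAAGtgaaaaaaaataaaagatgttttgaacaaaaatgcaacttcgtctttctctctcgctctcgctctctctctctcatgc
Among these 6 windows the MYRF motif was found once, in Mog at -83 to -77 from the start, and the SOX motif once, in Apod at -84 to -79. Myrf drives the expression of myelin genes and Sox10 acts throughout the oligodendrocyte lineage. The promoter table held 27 of the 35 members. Over any of a gene's starts, the MYRF motif was present in 6 of 27 members, or 22.2%, and in 6.99% of the 11152 tested genes in the table. The SOX motif was present in 13 of 27, or 48.1%, and in 20.6% of tested genes. Of the 7 members in the table that fell, 1 held the MYRF motif (Mog) and 1 the SOX motif (Tspan2). Of the 18 that did not pass the test, 5 held the MYRF motif and 11 the SOX motif, Mag, Cnp, Lpar1 and Hapln2 among those with both. The base composition differed as well, with a median of 57.2% G and C in members and 60.0% in tested genes. Per window, 16.7% of the 42 windows of members held the MYRF motif and 40.5% the SOX motif, against 5.72% and 17.7% of windows of tested genes. A match describes letters in a window and not a site that is bound.

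The 4 genes of transcription factors and receptors did not pass the test, and their median log2 fold change was -0.09. The sign turned without 79-week replicate 1, to a median of 0.10. Myrf, the membrane-bound transcription factor required for myelin gene expression, stood at 59.5 and 62.3 CPM at 7 weeks and at 46.7 and 70.4 CPM at 79 weeks. The 79-week libraries thus enclosed the younger ones (log2 fold change -0.05, SE 0.17, adjusted p = 0.872). The homeobox gene Nkx6-2 stood at 13.5, 11.8, 9.48 and 13.4 CPM (adjusted p = 0.694). Lpar1, a receptor for lysophosphatidic acid, stood at 53.2, 51.3, 38.4 and 44.2 CPM, without overlap between ages (log2 fold change -0.33, SE 0.09, adjusted p = 0.058). S1pr5, the sphingosine 1-phosphate receptor of mature oligodendrocytes, stood between 21.5 and 24.8 CPM in all 4 libraries (log2 fold change 0.01, SE 0.10, adjusted p = 0.977).

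Cytoskeletal and intracellular proteins had a median log2 fold change of 0.04, and 1 of 7 fell. The median was 0.23 without 79-week replicate 1, with log2 fold changes of -0.43 for Gsn and 0.50 for Evi2a. Gsn, which encodes the actin-severing protein gelsolin, stood at 75.4 and 68.4 CPM at 7 weeks and at 53.7 and 53.1 CPM at 79 weeks (log2 fold change -0.43, SE 0.07, adjusted p = 0.0169). It was 1 of 3 members, with Trf and Apod, in which 79-week replicate 1 was not below replicate 2. Ermn, a cytoskeletal protein of the outer sheath, stood at 59.5 and 58.8 CPM at 7 weeks and at 44.1 and 67.8 CPM at 79 weeks. The same arrangement, replicate 1 below and replicate 2 above both 7-week libraries, held for Anln, a septin-binding protein, at 33.7 and 49.7 CPM at 79 weeks against 37.1 and 44.5 CPM. Ndrg1 (79.1 and 105.8 CPM at 79 weeks), Ppp1r14a (11.8 and 15.4 CPM) and Plekhb1 (309.6 and 372.4 CPM) also enclosed their 7-week levels. Evi2a had a log2 fold change of 0.30 (SE 0.19, adjusted p = 0.353), with 9.91, 12.7, 11.8 and 16.1 CPM.

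Among the 8 secreted, matrix and metabolic proteins 1 fell, 2 rose and 5 did not pass the test, with a median log2 fold change of -0.12. Without 79-week replicate 1 the median was 0.06. Log2 fold changes were then -0.39 for Adamts4, 0.39 for Apod, 0.79 for Il33 and 0.44 for Hapln2. Adamts4, a metalloprotease that cleaves proteoglycans, stood at 79.8 and 69.1 CPM at 7 weeks and at 45.7 and 56.6 CPM at 79 weeks (log2 fold change -0.54, SE 0.11, adjusted p = 0.0322). Apod rose from 173.4 and 188.1 CPM to 250.4 and 237.6 CPM (log2 fold change 0.43, SE 0.06, adjusted p = 0.00936). Il33 rose from 15.3 and 24.4 CPM to 34.0 and 34.8 CPM, and its spread lay in the 7-week libraries (log2 fold change 0.78, SE 0.19, adjusted p = 0.0435; 0.117 with edgeR's robust dispersion). In both genes the 79-week libraries differed from each other by less than the ages did. Car2, a carbonic anhydrase, was lower in both 79-week libraries by a small amount, at 161.1, 165.6, 145.3 and 149.4 CPM (log2 fold change -0.15, SE 0.05, adjusted p = 0.102). Qdpr, which regenerates tetrahydrobiopterin, overlapped between ages at 111.3, 120.1, 102.9 and 115.6 CPM. Hapln2, a link protein of the matrix at nodes of Ranvier, stood at 41.0 and 34.9 CPM at 7 weeks and at 30.6 and 51.2 CPM at 79 weeks, so the libraries of 79 weeks again lay on either side (adjusted p = 0.772). Klk6, a serine protease of oligodendrocytes, stood at 17.8, 10.04, 7.30 and 14.9 CPM, with a spread as wide within ages as between them (SE 0.35, adjusted p = 0.626). Trf, the iron carrier transferrin, had 46 to 66 reads per library (adjusted p = 0.758).

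The libraries of 79 weeks differed from each other in these genes more than the libraries of 7 weeks did. Replicate 1 was below replicate 2 at 79 weeks in 32 of 35 members, beside 50.1% of all tested genes, and it was the lowest of the 4 libraries in 30, beside 26.9%. The median log2 ratio of replicate 1 to replicate 2 was -0.40 at 79 weeks and 0.05 at 7 weeks. Relative to the 7-week mean, the members had a median of -0.42 in replicate 1 and of -0.10 in replicate 2 of the older age. Each of the 9 sheath genes was below both 7-week libraries in 79-week replicate 2 as well, beside 38.8% of all tested genes. This was not particular to them. In that library 15 of 16 nodal and paranodal genes and 10 of 10 granule neuron markers were below both too. The 30 other oligodendrocyte genes did not share it, with 9 below both and 16 above both. Their median in that library was 0.07 relative to the 7-week mean. In that library 6 of the 7 cytoskeletal and intracellular genes were above both, beside 39.3%.

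**Figure D3:**
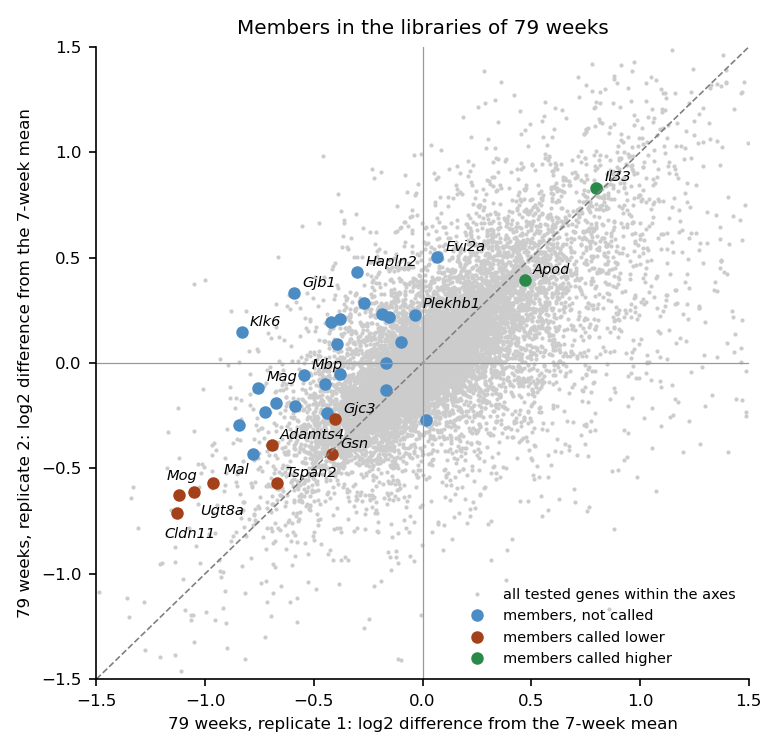
Log2 difference from the 7-week mean in 79-week replicate 1 (horizontal) and replicate 2 (vertical) for the 35 members and 15094 tested genes (grey; 198 lie outside the axes), with a dashed line where the libraries are equal. Members lie mostly above the line, and Cldn11, Mog, Ugt8a and Mal are low on both axes while Apod and Il33 are high on both.

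Members also differed among themselves within each 79-week library. Values here are log2 differences from the 7-week mean with the members' median of each library taken off, and since both libraries are set against the same 7-week mean, their likeness is no test. Cldn11 stood at -0.71 in 79-week replicate 1 and at -0.61 in replicate 2, Mog stood at -0.70 and -0.52, Ugt8a at -0.63 and -0.51, and Mal at -0.54 and -0.47. Il33 stood at 1.22 and 0.93, Apod at 0.89 and 0.50, and Evi2a at 0.49 and 0.60. Mbp was near the median in both, at -0.13 and 0.04. Differences taken over library pairs that share no library, 79-week minus 7-week for replicate 1 and for replicate 2, had a Pearson correlation of 0.507 and a Spearman correlation of 0.504 across the 35 members, and of 0.433 and 0.467 across all tested genes. With the pairs crossed the values were 0.812 and 0.769 for members and 0.494 and 0.512 for all tested genes. These describe genes within the same 4 libraries, and genes are not independent replicates.

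Leaving out libraries changed which members passed. With a single library left at an age, the scatter comes from the other age alone. These calls are therefore no check on those with all libraries. Without 79-week replicate 1 the median of the members was -0.10, and 7 members fell (Mog, Mal, Tspan2, Ugt8a, Cldn11, Gsn and Adamts4), beside 4.86% of genes, while 4 rose (Apod, Il33, Hapln2 and Evi2a), beside 5.10%. Gjc3 then had an adjusted p of 0.0607. Without 79-week replicate 2 the median was -0.43 and 21 members were lower, beside 6.76% of genes, Mbp, Mobp, Mag, Cnp, Fa2h and Myrf among them, and 2 were higher (Apod and Il33), beside 8.63%. With replicate 1 of 79 weeks left out Mbp had a log2 fold change of -0.06, and with replicate 2 left out one of -0.55. That of Mag was -0.12 and -0.76, and that of Tspan2 was -0.57 and -0.68. Without 7-week replicate 2, 1 member fell (Tspan2), beside 0.587% of genes, and 2 rose (Apod and Il33), beside 0.518%. Without 7-week replicate 1 edgeR called 0 members and 0 genes, with 11 members lower and 2 higher at an unadjusted p under 0.05 (beside 8.77% and 7.36% of all tested genes), and DESeq2 called 3 members lower (Tspan2, Cldn11 and Mog), beside 0.952% of genes, and 1 higher (Apod), beside 0.501%. The 10 members that passed with all libraries kept their direction in all 19 alternatives. Their ages did not overlap, so leaving out 1 library could hardly have turned it, and the kept direction is no further support.

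**Figure D4:**
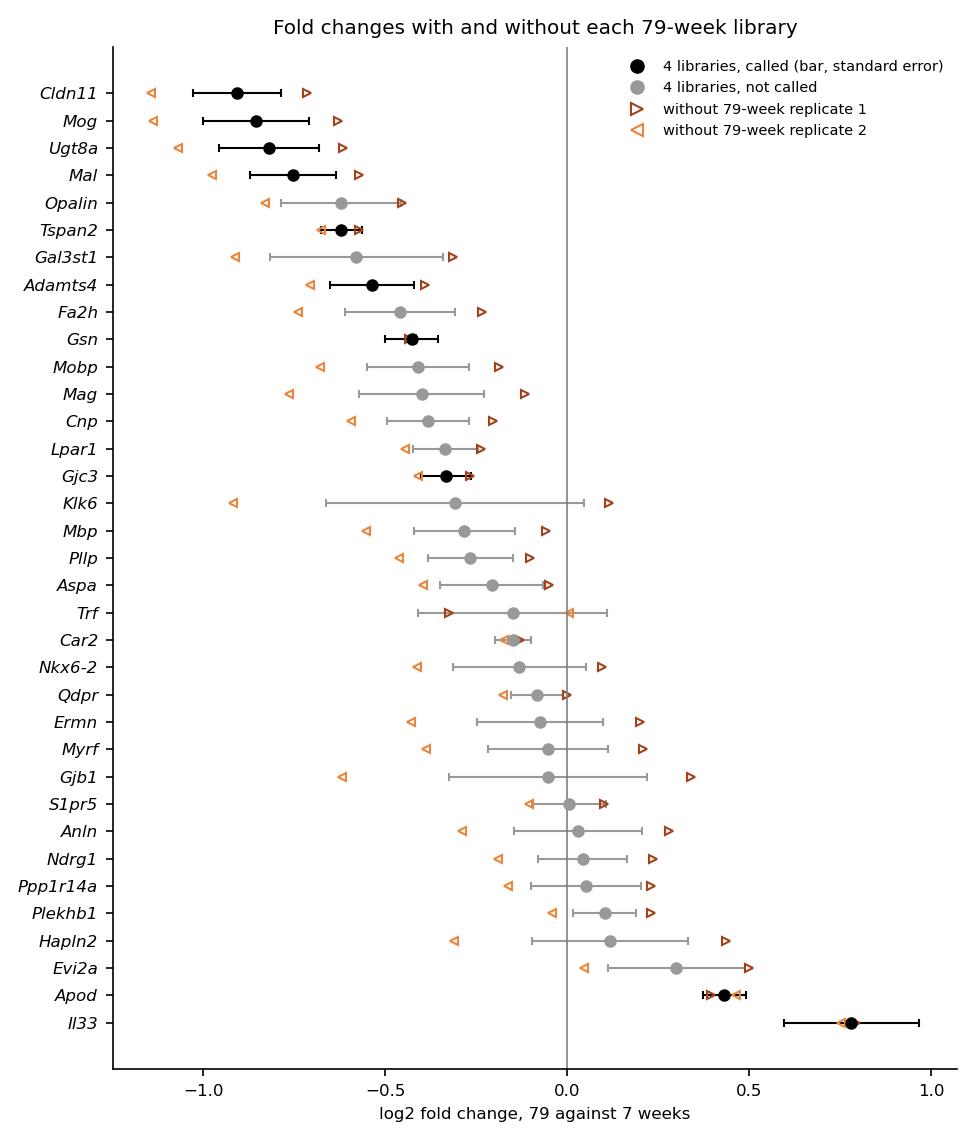
Log2 fold change of each member with all 4 libraries (circles, bars are standard errors; black passed the test, grey did not) and with 1 of the 79-week libraries left out (triangles). The triangles lie far apart for Mbp, Mag, Gjb1 and Klk6 and close together for Tspan2, Gsn, Apod and Il33.

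Other genes of the lineage and the sheath were read from further lists. Of 30 other oligodendrocyte genes 0 were lower and 0 higher, with a median log2 fold change of -0.05, and Cntn2, an axonal and glial adhesion protein, stood at 553.7, 527.9, 513.0 and 566.4 CPM. Sept4, a septin that is also among the listed astrocyte and Bergmann glia markers, stood at 500.3, 494.4, 445.0 and 458.1 CPM (adjusted p = 0.163). The median log2 fold change of the 30 was 0.07 without 79-week replicate 1. Of 20 genes of sphingolipid and fatty acid synthesis 1 fell, the fatty acid elongase gene Elovl6 (log2 fold change -0.38, SE 0.07, adjusted p = 0.0202), and the median was -0.08. Of 14 lineage transcription factor genes 2 fell. Olig2, which specifies the lineage, stood at 17.8, 19.9, 10.4 and 13.5 CPM (log2 fold change -0.66 with an SE of 0.15, adjusted p = 0.0357), and Klf9 fell by 0.33 on the log2 scale (adjusted p = 0.0173).

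Precursor and premyelinating genes had 5 of 19 tested members lower and 0 higher, with a median of -0.23. Gpr17, a receptor of immature oligodendrocytes, stood at 29.8 and 32.8 CPM at 7 weeks and at 8.80 and 7.99 CPM at 79 weeks (log2 fold change -1.90, SE 0.11, adjusted p = 0.00113). Tmem163, Fyn and Tnr fell by 0.55, 0.28 and 0.47 on the log2 scale (adjusted p = 0.0103, 0.0188 and 0.0226). Gpr17 was not lower in 79-week replicate 1 than in replicate 2, but 13 of the 19 tested genes of its list were, as were 32 of the 35 members. Of 16 nodal and paranodal genes, most of them neuronal, 4 fell, among them the potassium channel genes Kcna1 and Kcna2 and the adhesion gene Nrcam, with log2 fold changes of -0.57, -0.39 and -0.26 (adjusted p = 0.00484, 0.0103 and 0.0268). Of 13 genes reported in aged or diseased oligodendrocytes, and shared by microglia and astrocytes, 3 rose and 0 fell. The complement gene C4b stood at 7.85, 9.02, 48.5 and 66.7 CPM (log2 fold change 2.77, SE 0.17, adjusted p = 0.00161), Cd9 at 38.6, 39.7, 56.9 and 52.4 CPM (adjusted p = 0.0145), and B2m at 51.97, 85.6, 112.5 and 124.2 CPM (adjusted p = 0.0485). Markers of other cells moved between ages too. Of 13 microglial markers 9 rose, for example Ctss (log2 fold change 1.36, adjusted p = 0.00408), and they summed to 275.8 and 336.6 CPM at 79 weeks against 156.4 and 173.0 CPM at 7 weeks. Of 10 granule neuron markers 5 fell, Gabra6, Etv1, Cbln1 and Slc17a7 among them, and of 9 Purkinje cell markers 5 fell, Rgs8, Car8 and Calb1 among them. In either direction 0 of 10 endothelial and pericyte markers passed (the most abundant were Rgs5 at 77.0 to 95.1 CPM and Flt1 at 51.1 to 70.3 CPM). Of 10 astrocyte and Bergmann glia markers 2 rose (Gfap and Aldh1l1, log2 fold changes 0.66 and 0.34) and 1 fell (Slc1a3, -0.25), and of 4 Schwann cell and 3 brainstem neuron markers tested 0 passed. Median log2 fold changes without 79-week replicate 1 were 1.12 for microglial markers (0.92 with all libraries) and 0.25 for genes of aged or diseased oligodendrocytes (0.41). They were -0.05 for astrocyte and Bergmann glia markers (-0.13) and 0.05 for endothelial and pericyte markers (0.02). Precursor genes had -0.20 (-0.23), lineage factors -0.13 (-0.20) and nodal genes -0.18 (-0.21). Granule neuron markers had -0.33 (-0.28) and Purkinje cell markers -0.23 (-0.22). The part of these cells in the myelin values was not tested.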

How the data were processed

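RNA from 4 mouse cerebellum samples was measured by mRNA sequencing (Trizol extraction and the Universal Plus mRNA-Seq kit, as the labels' protocols state). The authors deposited unnormalized read counts for each Ensembl gene. The submitters' processing notes name cutadapt, STAR, HTSeq and build mm9, without versions or roles. The annotation release is not given in the sources used here, nor is the strand setting. Whether reads of overlapping genes were separated by strand is therefore not known. HTSeq's line for ambiguous reads held 0.70% to 0.77% of each library's reads. In RefSeq 13 members overlap another gene, among them Tspan2, Ugt8a, Gsn, Il33 and Adamts4. HTSeq summary lines were removed. They held 35.5% and 37.6% of reads in the 7-week libraries and 39.1% and 40.7% in the 79-week libraries. Reads not aligned made up 7.97% and 9.80% at 7 weeks and 10.3% and 11.4% at 79 weeks. Whether this difference between the ages bears on the members was not tested.

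In R 4.3.3, genes were filtered by filterByExpr (minimum count 10, minimum total 15) and tested with edgeR 4.0.16 (TMM factors 0.9812 to 1.023, quasi-likelihood F test, no covariates, Benjamini-Hochberg adjustment over all genes, threshold 0.05). The standard error was computed from the F statistic. The depth gives a limit of 3 counts, or 0.131 to 0.183 CPM, for a gene with 0 reads (counting error only). DESeq2 1.42.0 and limma 3.58.1 (voom) were alternatives. The method was tested on simulated data with 200 changed genes. The members and the 16 other lists were chosen with earlier results of these data known, so no set test was made. All 35 members are named; of each other list, up to 4 called genes by adjusted p, otherwise the 2 most abundant. Of 247 listed genes 245 were found. Results are given for lists of the lineage and of cells that bear on the members; some genes of these lists are not reported here by name.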

Additional observations from a re-analysis of the deposited data

How the results depend on the processing

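With all 4 libraries, RLE, upper-quartile or library-size scaling, a filter of 1 CPM in 2 libraries, limma-voom and edgeR with legacy=FALSE each gave 8 members lower and 2 higher. In these settings 3.17% to 5.32% of all tested genes were lower and 3.52% to 5.89% higher. DESeq2 gave 9 and 2, beside 4.85% and 3.58% of all tested genes. Without a low-count filter 17 members were lower (beside 6.22%), 2 were higher (Apod and Il33, beside 6.88%) and 3051 genes passed. With robust=TRUE 9 members were lower (beside 6.10%) and 1 higher (Apod, beside 5.32%). Under robust=TRUE edgeR's adjusted p was 0.117 for Il33 and 0.0657 for Mal. The cause was not tested. The deviations of same-numbered libraries had a correlation of -0.106 across genes. With 2 libraries an age the deviations mirror each other, so this cannot show whether the replicate numbers of the titles pair the libraries. With the replicate number as a block 10 members were lower (beside 4.75%) and 2 higher (beside 4.38%), with Cnp and Opalin added, and 1396 genes passed. With the numbers crossed, an alternative chosen after seeing the data, 14 members were lower (beside 6.57%), 2 higher (beside 6.60%) and 2014 genes passed.

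Leaving out 1 library in turn, by edgeR or (chosen after seeing the data) by DESeq2, gave 0 to 21 members lower, 0 to 4 higher, 0 to 2425 genes passed and a median between -0.43 and -0.10; fewer libraries entered each fit. The log2 fold changes that crossed 0 ranged from -0.29 to 0.28 for Anln, -0.43 to 0.20 for Ermn, -0.63 to 0.34 for Gjb1, -0.32 to 0.44 for Hapln2, -0.94 to 0.14 for Klk6, -0.39 to 0.21 for Myrf, -0.19 to 0.24 for Ndrg1, -0.42 to 0.10 for Nkx6-2, -0.0448 to 0.23 for Plekhb1, -0.17 to 0.23 for Ppp1r14a, -0.11 to 0.10 for S1pr5 and -0.33 to 0.0049 for Trf. With all libraries, 2 members crossed 0, Myrf under library-size scaling (0.0003) and S1pr5 with the crossed block (-0.0003). By DESeq2 without 79-week replicate 1, 5 members were lower (Cldn11, Mal, Mog, Tspan2 and Ugt8a), beside 1.48% of genes, and 1 higher (Apod), beside 0.908%. In all 19 alternatives 23 of the 35 members kept 1 sign. With 2 libraries an age, the depth of 16367656 to 22826993 gene counts limited the precision of Trf (46 to 66 reads) more than that of the abundant sheath genes. Whether counting or annotation lowers the reads of Trf was not tested.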
